A study of Homo sapiens with 24 samples.

Results

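Small Cajal body RNAs (scaRNAs) are guide RNAs that stay in Cajal bodies, the nuclear bodies in which spliceosomal small nuclear RNAs (snRNAs) mature. C/D box scaRNAs direct ribose methylation and H/ACA box scaRNAs direct pseudouridylation of snRNAs, and composite scaRNAs carry both domains. Most human scaRNAs are cut out of the introns of host genes, whereas SCARNA2 and SCARNA17 are transcribed from promoters of their own by RNA polymerase II. The 10 genes described here were taken by name from the annotated small RNA features: SCARNA2, SCARNA7, SCARNA9 and SCARNA17 (C/D), SCARNA5, SCARNA6, SCARNA10 and SCARNA12 (composite), and SCARNA13 and SCARNA16 (H/ACA). They are 10 of 175946 features, each matched by 1 interval that is not a lncRNA interval, and the table holds 18 further scaRNA intervals.

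The cells were HEK293, an established human embryonic kidney line of wild-type genotype, in which eGFP (GFP below, the control), LMNA, LMNB1 or LMNB2 was overexpressed. LMNA, LMNB1 and LMNB2 encode the nuclear lamins A/C, B1 and B2, filament proteins under the inner nuclear membrane. Each group had 3 small RNA libraries, made after an RNA extraction that enriches short RNAs, and 3 ATAC-seq libraries, in which a transposase cuts accessible DNA. The sources used here do not give the vector, its promoter, the time after overexpression or whether replicates were separate cultures, so p-values measure the spread between these libraries, which may be technical.

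Total counts were 132.5 to 195.1 M per small RNA library and 156.0 to 290.2 M per ATAC library over the windows on the features. ATAC windows over the lamin genes matched the labels: the window on lnc-SEMA4A-1, inside LMNA, held 869602 to 1063696 counts in the LMNA libraries and 1573 to 4911 in the others. For LMNB1-DT at LMNB1 the values were 2210312 to 3584440 against 1431 to 6490, and for MIR7108 inside LMNB2 they were 1649723 to 1956256 against 22 to 4719. These values cover the ATAC libraries and not the small RNA ones, and the source of the counts was not tested. MicroRNA genes that mark liver, blood, muscle, neurons or pluripotent cells (16 intervals) summed to 4 to 17 small RNA counts per library in all, and 3 of the intervals were at 0 throughout. The GFP small RNA libraries differed most among themselves, with TMM scaling factors of 0.6313, 0.9047 and 1.309, against 0.8776 to 1.1639 in the other groups. The share of ATAC window counts on the mitochondrial chromosome was 39.9% to 47.5% in GFP and 24.5% to 30.7% in LMNB2. Its part in the results was not tested.

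All 10 intervals lie on GRCh38, per the submitters' processing notes, and positions are counted from 1. The own-promoter genes are SCARNA2 (chromosome 1, 109100174 to 109100644, plus strand), which lies in no RefSeq gene other than its own, and SCARNA17 (chromosome 18, 49814108 to 49814301, plus strand). SCARNA17 shares its start with the lncRNA gene SNHG22, and its interval covers 194 bases inside the 421-base RefSeq gene. SCARNA9 (chromosome 11, 93721489 to 93721891) lies in CEP295, SCARNA10 (chromosome 12, 6510197 to 6510576) in NCAPD2, and SCARNA12 (chromosome 12, 6967312 to 6967631, minus strand) in PHB2. SCARNA5 (chromosome 2, 233275702 to 233276027) and SCARNA6 (chromosome 2, 233288651 to 233288965) lie in the same host, ATG16L1. SCARNA7 (chromosome 3, 160514882 to 160515261, minus strand) lies in KPNA4, SCARNA13 (chromosome 14, 95533330 to 95533654, minus strand) in the lncRNA gene SNHG10, and SCARNA16 (chromosome 17, 77089282 to 77089518) in the lncRNA gene SNHG20 and in SEC14L1. Hosts are from RefSeq. For 6 of the genes the interval reaches exactly 25 bases past the RefSeq gene on each side.

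The promoters below are shown because they overlap an ATAC window or a 500-base flank of these genes. The first is the RefSeq promoter of SNHG22 (GRCh38, chr18:49813773-49814072, plus strand), the start it shares with SCARNA17, of which 90 bases lie inside the SCARNA17 ATAC window. The second is the RefSeq promoter of SNHG20 (chr17:77088393-77088692, plus strand), all 300 bases of which lie in the upstream flank of SCARNA16. Capitals mark matches on either strand to TATAAA (the TATA box), GGGCGG (the GC box), CCGGAAG (ETS core), CACGTG (E-box) or the letters CCAAT.
SNHG22 promoter: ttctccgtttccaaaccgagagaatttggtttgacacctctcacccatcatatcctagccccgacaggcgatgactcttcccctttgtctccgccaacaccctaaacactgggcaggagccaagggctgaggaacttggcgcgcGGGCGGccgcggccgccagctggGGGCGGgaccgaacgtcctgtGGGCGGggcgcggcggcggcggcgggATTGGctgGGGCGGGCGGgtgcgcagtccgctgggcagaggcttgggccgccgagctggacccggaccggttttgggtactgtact
SNHG20 promoter: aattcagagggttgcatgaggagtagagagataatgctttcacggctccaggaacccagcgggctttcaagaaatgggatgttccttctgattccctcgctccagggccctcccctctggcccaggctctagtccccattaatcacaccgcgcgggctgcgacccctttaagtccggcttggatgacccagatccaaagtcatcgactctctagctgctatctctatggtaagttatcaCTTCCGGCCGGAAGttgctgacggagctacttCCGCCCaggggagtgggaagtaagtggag
The SNHG22 promoter held 5 matches to the GC box, the last of them overlapping, and 1 to CCAAT, and the SNHG20 promoter held 1 match to the GC box and 2 to the ETS core. Of 35116 RefSeq promoters of this length, 45% held the GC box, 34.6% CCAAT, 10.3% the ETS core, 11.5% the TATA box and 7.26% the E-box. The promoter table holds 0 of the 10 scaRNA genes themselves. G and C made up 67.3% of the SNHG22 promoter and 55.3% of the SNHG20 promoter, either side of the median of 58.7% over all of them.

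SCARNA16 carries a microRNA hairpin annotation, MIR6516, over its 3′ end. The RefSeq hairpin, read up to the last base of SCARNA16 (chr17:77089417-77089493, plus strand), gives the 3′ part of this H/ACA RNA. It is shown because it holds the ACA box, 3 bases before the end of the gene, and a UGAG, the letters of the CAB box that retains H/ACA RNAs in Cajal bodies; both are in capitals. In the mature microRNAs below it the seed (bases 2 to 8) is in capitals.
SCARNA16 3′ part: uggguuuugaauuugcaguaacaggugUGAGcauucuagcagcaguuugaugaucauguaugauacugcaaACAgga
hsa-miR-6516-5p: uUUGCAGUaacaggugugagca
hsa-miR-6516-3p: aUCAUGUAugauacugcaaaca
UGAG occurs in 41.5% of 1562 RefSeq hairpins, so the match is a description only. The counted MIR6516 interval (77089444 to 77089515) is not the whole hairpin. It spans the 3p microRNA with 25 bases on each side and misses most of the 5p one. This interval held 3.54% to 11.9% as many counts as the SCARNA16 interval, and its reads lie in SCARNA16 as well, so the counts of the microRNA and of the scaRNA cannot be told apart.

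Per kilobase of interval, the small RNA level (CPM, the count scaled to the TMM-adjusted library size, over all 12 libraries) was highest for the U2 guides SCARNA9, at 54.6 CPM per kb, and SCARNA2, at 43.3. SCARNA16 followed at 34.2, then the composite RNAs SCARNA6 at 13.7 and SCARNA12 at 11.7. SCARNA13 at 3.31, SCARNA7 at 3.01, SCARNA5 at 2.97 and SCARNA10 at 2.73 lay close together, and SCARNA17 was lowest at 0.434. In GFP the levels were 54.7 ± 7.38 CPM per kb for SCARNA9, 39.1 ± 4.81 for SCARNA2 and 29.5 ± 13.3 for SCARNA16 (SD, n = 3), so SCARNA2 and SCARNA16 did not differ there beyond their spread, nor did SCARNA13 (2.64 ± 0.727), SCARNA5 (3.04 ± 0.335) and SCARNA7 (3.02 ± 0.471). SCARNA2 and SCARNA9 together made up 63.3% to 71.9% of the counts of the 10 genes in every library. The member intervals were among the denser ones in the table: between 97.9% (SCARNA17) and 99.5% (SCARNA9) of all features had a lower mean level per kb. Those are all 175946 features, 155223 of them lncRNA intervals, and 33893 passed the count filter used below. A high rank therefore does not imply high counts, as SCARNA17 had 8 to 22 per library.

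The low level of SCARNA17 applies to the inner interval only. An interval of SCARNA17 that the table types as lncRNA (49813998 to 49814468) spans the whole gene and held 2.22 CPM per kb. The inner interval took 5% to 14.9% of its counts, that is 8 to 22 counts per library against 98 to 215.

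SCARNA9 guides methylation of U2 snRNA with a different domain at each end, and the table lists the ends as separate Rfam intervals. The 3′ part, RF00493, held 149.8 CPM per kb and the 5′ part, RF00494, 30.9. Within libraries the 3′ part had 2.37 to 6.37 times the counts of the 5′ part, with the lowest ratio in GFP replicate 3. The table also lists SCARNA9 as a lncRNA interval with identical counts. Intervals of lncRNAs over SCARNA2, SCARNA10, SCARNA12, SCARNA13 and SCARNA16 held nearly the same counts as these genes, so none of those rows is separate evidence.

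**Figure D1:**
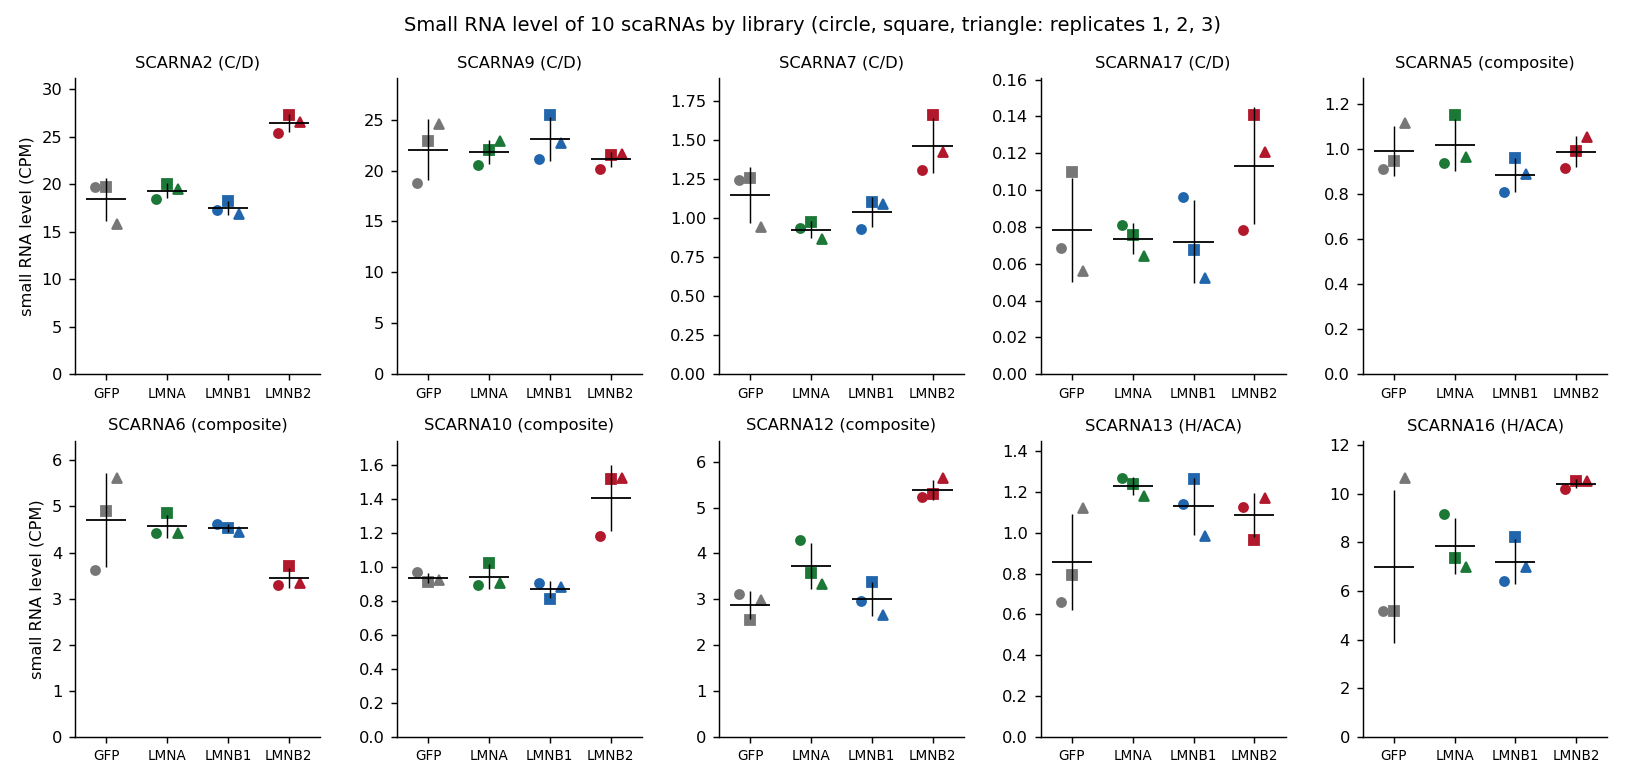
Small RNA level in CPM (y axes from 0, a scale per gene) of the 10 scaRNAs in each library by group, with the group mean (horizontal line) and SD (vertical line, n = 3). For SCARNA2, SCARNA7, SCARNA10 and SCARNA12 the 3 LMNB2 libraries lie above all other libraries, whereas SCARNA5 and SCARNA9 overlap across groups.

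In the LMNB2 libraries, 2 composite scaRNAs rose against GFP, SCARNA12 and SCARNA10, and SCARNA12 had the greatest change of the 10 genes with all libraries in the fit. Without GFP replicate 3 its log2 fold change was 0.97 and that of SCARNA16 was greater, at 1.05. The 3 comparisons with GFP share the GFP libraries, and the 3 comparisons with LMNB2 share the LMNB2 libraries. Differences were tested by edgeR's quasi-likelihood test over all 33893 features that passed the count filter, which included the 10 genes, with Benjamini-Hochberg adjustment over all of them.

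SCARNA12 lies in an intron of PHB2, the prohibitin 2 gene. Its level was 3.12, 2.54 and 2.99 CPM with GFP replicates 1 to 3, 4.29, 3.58 and 3.33 with LMNA, 2.97, 3.39 and 2.65 with LMNB1 and 5.23, 5.29 and 5.64 with LMNB2. Every LMNB2 library was above every other library. The log2 fold change against GFP was 0.90 ± 0.18 (SE), with an edgeR adjusted p of 0.0216, and that against LMNB1 was 0.84 ± 0.18, with an edgeR adjusted p of 0.0248. Against LMNA it was 0.53 ± 0.18, with an edgeR adjusted p of 0.157, which misses the threshold. The call against GFP was lost without GFP replicate 2 (edgeR adjusted p = 0.0516) or without LMNB2 replicate 1, 2 or 3 (0.06, 0.0974 and 0.102), and over all 19 alternatives the adjusted p ran from 2.44e-05 to 0.116.

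SCARNA10, known as U85, guides modification of U5 snRNA and lies in the condensin subunit gene NCAPD2. Its level was 0.970, 0.910 and 0.923 CPM with GFP, 0.895, 1.02 and 0.905 with LMNA, 0.905, 0.813 and 0.881 with LMNB1 and 1.18, 1.52 and 1.52 with LMNB2. The LMNB2 libraries were again above all others, with replicate 1 the lowest of the 3. The log2 fold change was 0.58 ± 0.15 against GFP (edgeR adjusted p = 0.0486) and 0.69 ± 0.15 against LMNB1 (edgeR adjusted p = 0.025), and against LMNA it was 0.57 ± 0.15 with an edgeR adjusted p of 0.0582. The call against GFP stood in 1 of the 12 fits that leave out a library, that without GFP replicate 3, and the adjusted p ran from 0.0217 to 0.207 over the 19 alternatives.

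The other composite RNAs, SCARNA5 and SCARNA6, come from the same host gene, ATG16L1, and did not move with SCARNA10 and SCARNA12. SCARNA5 ranged from 0.808 to 1.15 CPM over the 12 libraries, with the groups overlapping, and its log2 fold change for LMNB2 against GFP was −0.01 ± 0.15. SCARNA6 was 3.61, 4.90 and 5.62 CPM with GFP, 4.42, 4.85 and 4.43 with LMNA, 4.61, 4.53 and 4.45 with LMNB1 and 3.30, 3.70 and 3.34 with LMNB2. The LMNB2 libraries lay below every LMNA and LMNB1 library but overlapped GFP, and the log2 fold change against GFP of −0.45 ± 0.19 had an edgeR adjusted p of 0.203.

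Among the C/D box RNAs, SCARNA2 was 19.7, 19.7 and 15.8 CPM with GFP, 18.5, 20.1 and 19.5 with LMNA, 17.3, 18.3 and 16.8 with LMNB1 and 25.4, 27.2 and 26.6 with LMNB2. The LMNB2 libraries were above all others. The log2 fold change was 0.52 ± 0.19 against GFP, 0.45 ± 0.19 against LMNA and 0.60 ± 0.19 against LMNB1, and edgeR's quasi-likelihood test gave adjusted p-values of 0.146, 0.247 and 0.126, none past the threshold. DESeq2's test gave an adjusted p of 0.00144, 0.0256 and 0.000954 for the same comparisons, so the call for SCARNA2 depends on the tool. Over the 19 alternatives the adjusted p ran from 0.00144 to 0.338 against GFP, from 0.0219 to 0.674 against LMNA and from 4.31e-05 to 0.437 against LMNB1.

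SCARNA7, or U90, guides methylation of U1 snRNA. It was 1.24, 1.26 and 0.940 CPM with GFP, 0.933, 0.976 and 0.865 with LMNA, 0.929, 1.10 and 1.09 with LMNB1 and 1.31, 1.66 and 1.42 with LMNB2, where each library was above all others. It was the gene that passed the edgeR test for LMNB2 against LMNA (log2 fold change 0.65 ± 0.16, adjusted p = 0.0477), while against GFP its log2 fold change was 0.35 ± 0.16 (edgeR adjusted p = 0.245). The call against LMNA stood without GFP replicate 1 (edgeR adjusted p = 0.0456) or GFP replicate 3 (0.00966) and was lost on leaving out any of the other 10 libraries (0.0548 to 0.262).

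SCARNA9 held the level of its group means within 21.1 to 23.1 CPM, with libraries from 18.8 to 25.4, and its log2 fold change for LMNB2 against GFP was −0.07 ± 0.20. SCARNA17, which pairs with U4 and U12 snRNA, had 8, 15 and 10 counts in its inner interval in GFP and 13, 22 and 17 in LMNB2, and at this depth the groups overlapped (log2 fold change 0.48 ± 0.30, edgeR adjusted p = 0.387). Over its whole-gene interval it was 0.841, 0.741 and 1.13 CPM in GFP and 1.30, 1.34 and 1.18 in LMNB2, with every LMNB2 library above every GFP library. The log2 fold change of that interval was 0.48 ± 0.17 with an edgeR adjusted p of 0.124.

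In both H/ACA RNAs, GFP replicate 3 was the highest of the GFP libraries. The same held for SCARNA5, SCARNA6, SCARNA9 and the whole-gene SCARNA17 interval, so it is not particular to the H/ACA RNAs. SCARNA16 was 5.17, 5.18 and 10.6 CPM with GFP, 9.15, 7.37 and 6.98 with LMNA, 6.41, 8.23 and 6.98 with LMNB1 and 10.2, 10.5 and 10.5 with LMNB2. GFP replicate 3 lay with the LMNB2 libraries, and the log2 fold change against GFP was 0.57 ± 0.26 (edgeR adjusted p = 0.225). Without GFP replicate 3 it was 1.05, with an edgeR adjusted p of 0.00172, the lowest of its 19 alternatives (highest 0.451).

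SCARNA13 is a tandem H/ACA RNA from the lncRNA gene SNHG10. It was 0.661, 0.793 and 1.12 CPM with GFP, 1.27, 1.24 and 1.18 with LMNA, 1.14, 1.27 and 0.985 with LMNB1 and 1.13, 0.965 and 1.17 with LMNB2. All 3 LMNA libraries were above the GFP libraries, the log2 fold change was 0.51 ± 0.18, and the edgeR adjusted p was 0.893. Without GFP replicate 3 the log2 fold changes were 0.81 for LMNA and 0.62 for LMNB2, with edgeR adjusted p-values of 0.0273 and 0.0292 (over the 19 alternatives, 0.0273 to 1 and 0.0292 to 0.702).

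**Figure D2:**
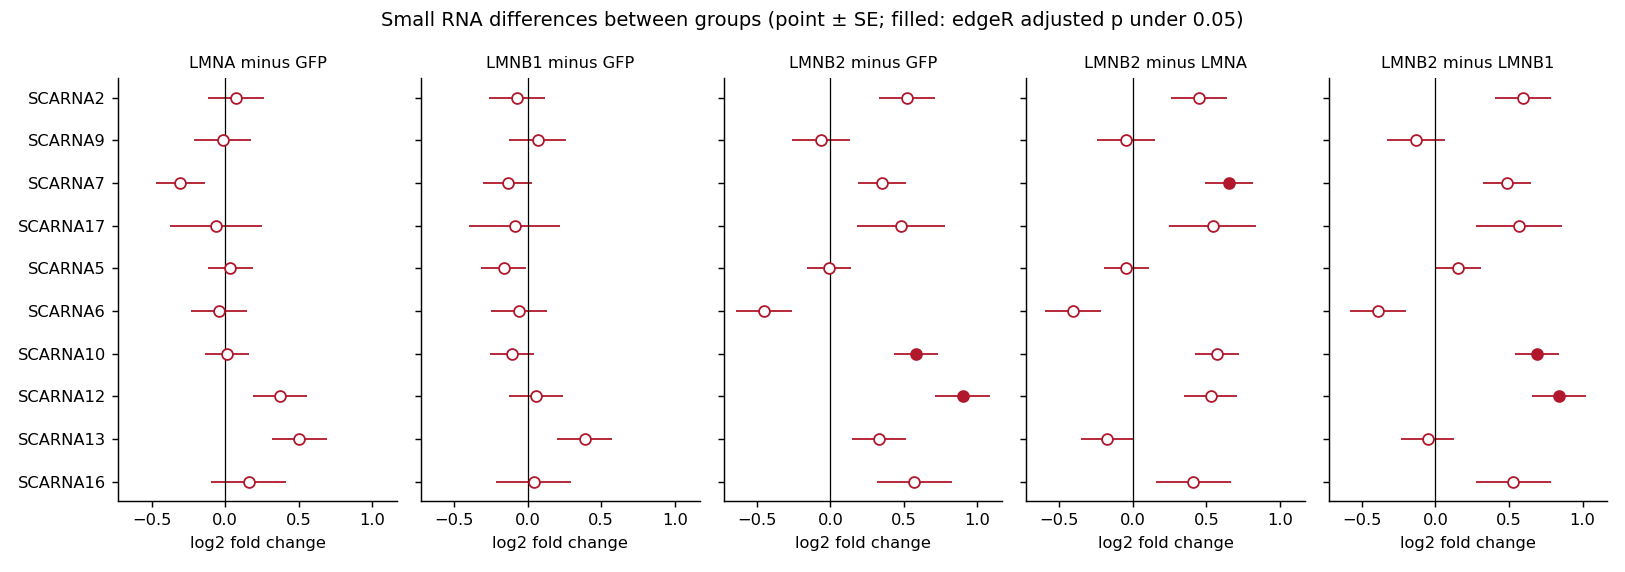
Log2 fold change in small RNA level (x axis) of the 10 scaRNAs (y axis) in 5 comparisons, with bars for the SE and filled points for an edgeR adjusted p under 0.05. SCARNA12 and SCARNA10 are filled for LMNB2 against GFP and LMNB1, SCARNA7 for LMNB2 against LMNA, and no point is filled for LMNA or LMNB1 against GFP.

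Counted together, 2 of the 10 genes were called for LMNB2 against GFP, both higher, where 2.65% of all tested features were called. For LMNB2 against LMNB1 the count was also 2 (background 2.2%), and for LMNB2 against LMNA it was 1 (background 2.01%). It was 0 for LMNA against GFP (background 0%), 0 for LMNB1 against GFP (background 0.0384%) and 0 for LMNB1 against LMNA (background 0.0118%). With counts of 0 to 2 of 10 genes, each call moves the share by 10 percentage points.

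At an unadjusted p under 0.05, 6 of the 10 genes passed for LMNB2 against GFP, 5 higher and SCARNA6 lower, against 19.9% of all features. The counts were 5 for LMNB2 against LMNA (background 16.4%), 4 for LMNB2 against LMNB1 (16%), 1 for LMNA against GFP (SCARNA13, background 5.46%), 0 for LMNB1 against GFP (5.51%) and 0 for LMNB1 against LMNA (5.73%). Among nucleolar guide RNAs, 29% of H/ACA (SNORA) and 26.2% of C/D (SNORD) intervals passed for LMNB2 against GFP. Their shares were 21.4% and 24.6% for LMNB2 against LMNA, and 21.4% and 12.3% for LMNB2 against LMNB1. DESeq2 called 3 of the 9 genes to which it gave an adjusted p for LMNB2 against GFP (SCARNA2, SCARNA10 and SCARNA12, background 9.31%), 2 of 9 for LMNB2 against LMNA (SCARNA2 and SCARNA7, background 3.01%) and 3 of 10 for LMNB2 against LMNB1 (SCARNA2, SCARNA10 and SCARNA12, background 1.92%). It called 0 of 5 for LMNA against GFP (background 2.33%), 0 of 10 for LMNB1 against GFP (0.0646%) and 0 of 10 for LMNB1 against LMNA (0.0296%).

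The LMNB2 libraries lay wholly above the GFP libraries for 4 genes and wholly below for 0, where 22.3% of all tested features were apart in either direction. They were apart from the LMNA libraries for 7 genes, 5 higher and 2 lower (background 28.1%), and from the LMNB1 libraries for 6 genes, 5 higher and 1 lower (background 29.6%). LMNA was apart from GFP for 2 genes, SCARNA12 and SCARNA13 (9.49%), LMNB1 was apart from GFP for SCARNA10 (10.1%), and LMNB1 was apart from LMNA for SCARNA2 (13.6%). The median log2 fold change of the 10 genes was 0.41 for LMNB2 against GFP, 0.43 against LMNA and 0.51 against LMNB1, beside medians over all tested features of −0.04, −0.00 and −0.01. It was 0.02 for LMNA against GFP and −0.07 for LMNB1 against GFP, beside −0.05 over all features in each. With total counts in place of TMM, the median over all features moved to 0.19 for LMNB2 against GFP and to 0.11 for LMNB1 against GFP.

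Ratios of raw counts within a library do not depend on the scaling. The pairs were chosen after the values were seen. The ratio of SCARNA2 to SCARNA9, both guides for U2, was 1.05, 0.862 and 0.643 with GFP, 0.9, 0.91 and 0.851 with LMNA, 0.817, 0.719 and 0.741 with LMNB1 and 1.26, 1.27 and 1.23 with LMNB2. The ratio of SCARNA12 to SCARNA6 was 0.519 to 0.97 in the 9 other libraries and 1.58, 1.43 and 1.69 in LMNB2. The ratio of SCARNA10 to SCARNA5 was 0.828 to 1.12 in the other groups and 1.29, 1.53 and 1.45 in LMNB2. In each of these ratios the 3 LMNB2 libraries stood above all others. Their numerators had already been seen highest in LMNB2, so this is a description and no separate evidence. The 3′ to 5′ ratio within SCARNA9 was 5.27 to 6.37 in LMNB2, above the 3.47 to 4.73 of LMNA, and overlapped both GFP and LMNB1.

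**Figure D3:**
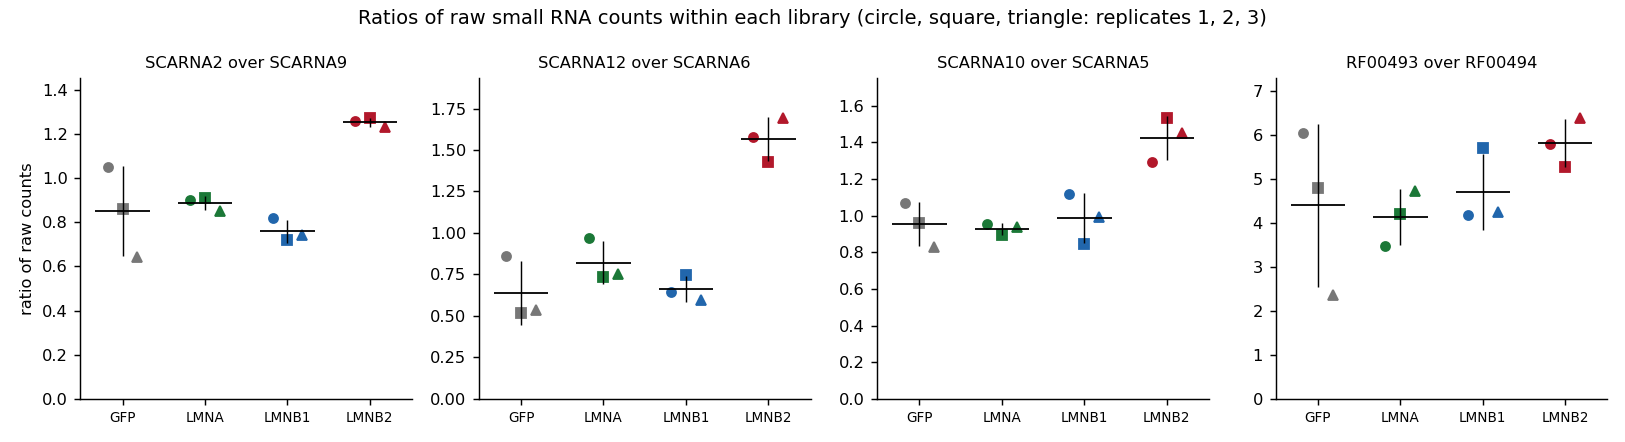
Ratio of raw small RNA counts (y axes from 0) between pairs of scaRNAs, and between the 3′ and 5′ Rfam intervals of SCARNA9 (RF00493 over RF00494), in each library by group, with the group mean and SD (n = 3). The first 3 ratios are higher in every LMNB2 library than in any other library, and the fourth is higher in LMNB2 than in LMNA but overlaps GFP and LMNB1. The pairs were chosen after the values were seen, so the separation is no separate evidence.

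Of the 15 tested scaRNAs outside the set, SCARNA18 was the one that passed the edgeR test for LMNB2 against GFP (0.845 ± 0.122 CPM in GFP and 1.86 ± 0.151 in LMNB2, log2 fold change 1.12 ± 0.17, adjusted p = 0.00369), and the median log2 fold change of the 15 was 0.19. For LMNB2 against LMNA their median was −0.27, with 4 of 15 above 0 and 0 edgeR calls, where the 10 genes had a median of 0.43. There 3 passed at an unadjusted p under 0.05 (20%, background 16.4%), and DESeq2 called 1 (background 3.01%). For LMNA against GFP all 15 fold changes were above 0, with a median of 0.29 and 0 edgeR calls. Here 6 passed at an unadjusted p under 0.05 (40%, background 5.46%), and DESeq2 called 1 (background 2.33%). SCARNA18 also passed for LMNB2 against LMNB1 (log2 fold change 0.78 ± 0.16, edgeR adjusted p = 0.0192). At an unadjusted p under 0.05 the 15 gave 4 features (26.7%, background 19.9%) for LMNB2 against GFP. The 29 intervals of spliceosomal snRNAs, the targets of scaRNAs, had 0 edgeR calls in that comparison. DESeq2 called 6 (background 9.31%), and 7 passed at an unadjusted p under 0.05 (24.1%, background 19.9%). Of the 7, 6 were copies of RNU1-1, the U1 gene, which share reads (one had 105.2 ± 12.9 CPM in GFP and 167.8 ± 2.82 in LMNB2, log2 fold change 0.67 ± 0.22, edgeR adjusted p = 0.11), and RNU5F-1 was lower. The telomerase RNA TERC, an H/ACA RNA of Cajal bodies, had 0.415 ± 0.0393 CPM in GFP and 0.461 ± 0.0362 in LMNB2 (log2 fold change 0.14 ± 0.16, edgeR adjusted p = 0.66).

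Nucleolar guide RNAs are the nearest relatives of scaRNAs. For LMNB2 against GFP the H/ACA (SNORA) intervals gave 14 calls higher and 1 lower of 131 tested (11.5%), with a median log2 fold change of 0.26, and the C/D (SNORD) intervals gave 9 higher and 1 lower of 195 (5.13%), with a median of −0.19. Of all tested features, 2.65% were called in that comparison. For LMNA against GFP both gave 0 edgeR calls. At an unadjusted p under 0.05, 42 of 131 SNORA (32.1%) and 16 of 195 SNORD intervals (8.21%) passed, all of them higher (background 5.46%). DESeq2 called 2 of each (background 2.33%). The difference between these classes and the scaRNAs was not tested.

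Outside the scaRNAs, the feature whose log2 level over the 12 small RNA libraries was most like the mean of the 10 genes was RNVU1-1, a variant U1 snRNA gene (Pearson r = 0.964), followed by a signal recognition particle RNA interval and an overlapping U1 interval (0.96 each) and by RNVU1-19 (0.956). These values describe 12 libraries that share their scaling and depth, and come from 2650 candidate features. For SCARNA2 alone the best match was a ribosomal RNA interval (r = 0.974).

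In every group the ATAC windows on the own-promoter genes were denser than those on the intronic genes. Each ATAC window spans the interval and 125 bases on each side, and flanks of 500 bases start 350 bases outside it. The SCARNA17 window thus takes in 90 bases of the SNHG22 promoter, while the SNHG20 and SNHG10 promoters lie outside the SCARNA16 and SCARNA13 windows. The SCARNA2 window held 6.91 CPM per kb over the 12 libraries (range 6.13 to 7.76) and the SCARNA17 window 6.11 (5.12 to 7.28). The intronic windows were all lower, SCARNA13 at 1.25 and SCARNA16 at 0.9 CPM per kb being the densest of them. The other 6 held 0.29 (SCARNA6), 0.209 (SCARNA12), 0.096 (SCARNA5), 0.0922 (SCARNA10), 0.0436 (SCARNA9) and 0.0224 (SCARNA7), with 0 to 56 counts per library. Of all windows, 99.4% and 99.2% had a lower mean per kb than SCARNA2 and SCARNA17, against 2.90% for SCARNA7 and 18.2% for SCARNA9. Small RNA and ATAC order differed: SCARNA9, the densest small RNA, had the second lowest window.

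**Figure D4:**
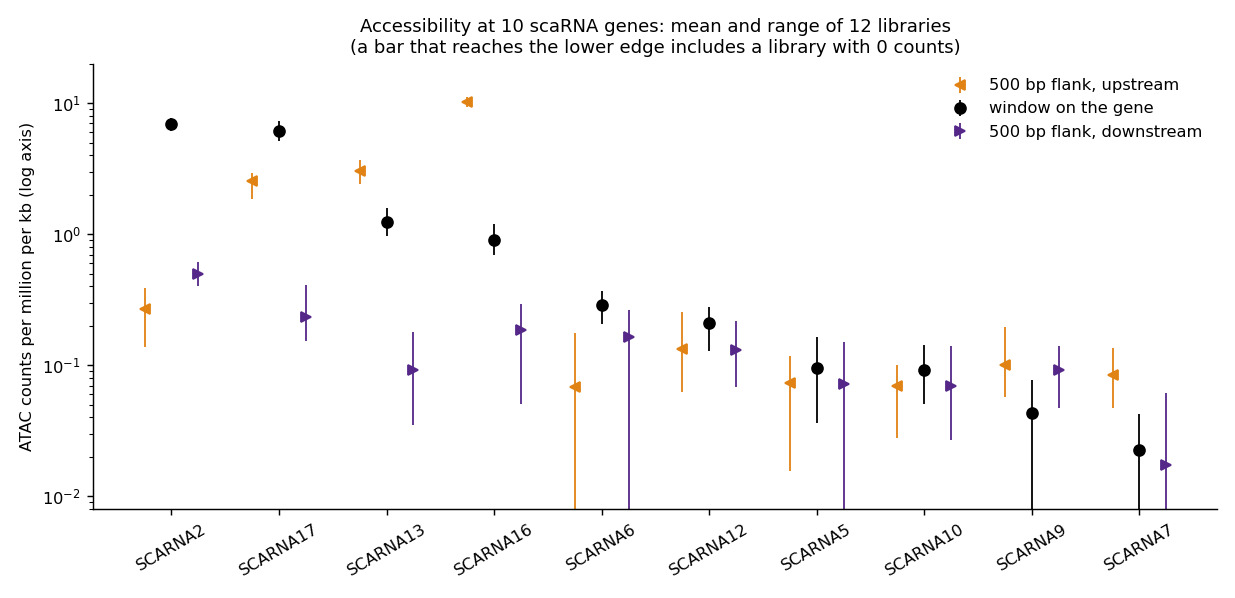
ATAC level in CPM per kb (log y axis) in the window on each of the 10 scaRNA genes and in its upstream and downstream 500 bp flanks, as the mean and range over 12 libraries. The SCARNA2 and SCARNA17 windows are above their flanks, while for SCARNA13 and SCARNA16 the upstream flank is above the window.

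Within a library, the SCARNA2 window held 17.9 times the density of its 500 bp flanks (mean log2 ratio 4.16 over 12 libraries, range 3.76 to 4.57), and the SCARNA17 window 4.36 times (2.12, range 1.90 to 2.30). The flanks of SCARNA17 are unequal, with 2.57 CPM per kb upstream and 0.232 downstream. For the host-gene lncRNAs the upstream flank carried the signal: it held 10.3 CPM per kb at SCARNA16, where the SNHG20 promoter shown above lies, and 3.05 at SCARNA13, against 0.187 and 0.0918 downstream. The SCARNA16 and SCARNA13 windows were below their flanks, with mean log2 ratios of −2.55 and −0.34. SNHG20 starts 664 bases before SCARNA16 and SNHG10 starts 1243 bases before SCARNA13, on the same strand. The windows of SCARNA6, SCARNA12, SCARNA10 and SCARNA5 had mean log2 ratios of 1.37, 0.67, 0.45 and 0.39, from counts of 6 to 56 per library. Those of SCARNA7 and SCARNA9 were −1.29 and −1.32, from even fewer counts. For SCARNA12, SCARNA10 and SCARNA5 the sign changed with the length of the flanks, as given in the last section.

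Between groups, accessibility at the scaRNA genes showed no call. Of the 10 windows, 8 passed the count filter (SCARNA7 and SCARNA9, with 0 to 14 counts per library, did not) and were tested among 163786 windows. The edgeR test called 0 of 8 for LMNA against GFP (background 0.000611%), 0 for LMNB1 against GFP (0.00305%), 0 for LMNB2 against GFP (0.00244%), 0 for LMNB1 against LMNA (0.223%), 0 for LMNB2 against LMNA (0.00305%) and 0 for LMNB2 against LMNB1 (0.00305%). DESeq2 gave an adjusted p to 3 of the windows, or to 0 for LMNB1 against GFP, and called 0 of them (backgrounds in the same order 0.0598%, 0.757%, 0.128%, 0.889%, 0.115% and 0.0463%).

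At an unadjusted p under 0.05, 1 window passed for LMNA against GFP (SCARNA2, background 5.19%), 1 for LMNB2 against GFP (SCARNA17, 5.72%) and 1 for LMNB2 against LMNA (SCARNA2, 7.17%), and 0 passed for LMNB1 against GFP (4.78%), LMNB1 against LMNA (5.37%) and LMNB2 against LMNB1 (4.98%). The LMNA libraries were apart from GFP for 1 window (background 9.55%), the LMNB1 libraries for 0 (8.46%), and the LMNB2 libraries for 2, SCARNA6 higher and SCARNA17 lower (10.3%). The median log2 fold change of the 8 windows was 0.09 for LMNA, −0.07 for LMNB1 and −0.01 for LMNB2 against GFP, beside −0.00 over all tested windows in each. With total counts in place of TMM, the median over all windows moved to 0.19 for LMNB1 and 0.11 for LMNB2 against GFP.

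The SCARNA2 window was 5.07, 5.09 and 4.42 CPM with GFP, 5.60, 5.42 and 5.27 with LMNA, 5.30, 4.79 and 4.79 with LMNB1 and 4.73, 4.58 and 4.73 with LMNB2. The LMNA libraries were above all GFP and LMNB2 libraries, and LMNB2 overlapped GFP. The log2 fold change for LMNB2 against GFP was −0.05 ± 0.08 (95% interval −0.21 to 0.11), while the small RNA estimate for SCARNA2 in the same comparison was 0.52 ± 0.19. For LMNB2 against LMNA the window differed by −0.21 ± 0.08, with an edgeR adjusted p of 0.589.

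The SCARNA17 window was 3.23, 2.96 and 2.63 CPM with GFP, 2.49, 3.16 and 2.69 with LMNA, 2.83, 2.73 and 2.27 with LMNB1 and 2.57, 2.40 and 2.58 with LMNB2. The LMNB2 libraries lay below the GFP libraries, the lowest GFP library being close to the highest LMNB2 library. The log2 fold change was −0.22 ± 0.10 (95% interval −0.43 to −0.01), with an edgeR adjusted p of 0.864. Relative to its own 500 bp flanks the window had mean log2 ratios of 2.18 ± 0.14 in GFP and 2.00 ± 0.10 in LMNB2 (SD, n = 3), and these libraries overlapped.

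Of the windows on the genes called in small RNA, SCARNA12 had 16 to 43 ATAC counts per library and a log2 fold change for LMNB2 against GFP of 0.06 ± 0.34, and SCARNA10 had 6 to 20 counts and a log2 fold change of −0.10 ± 0.43. The windows lie on the scaRNA and not on the host promoters, which were not analysed here.

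**Figure D5:**
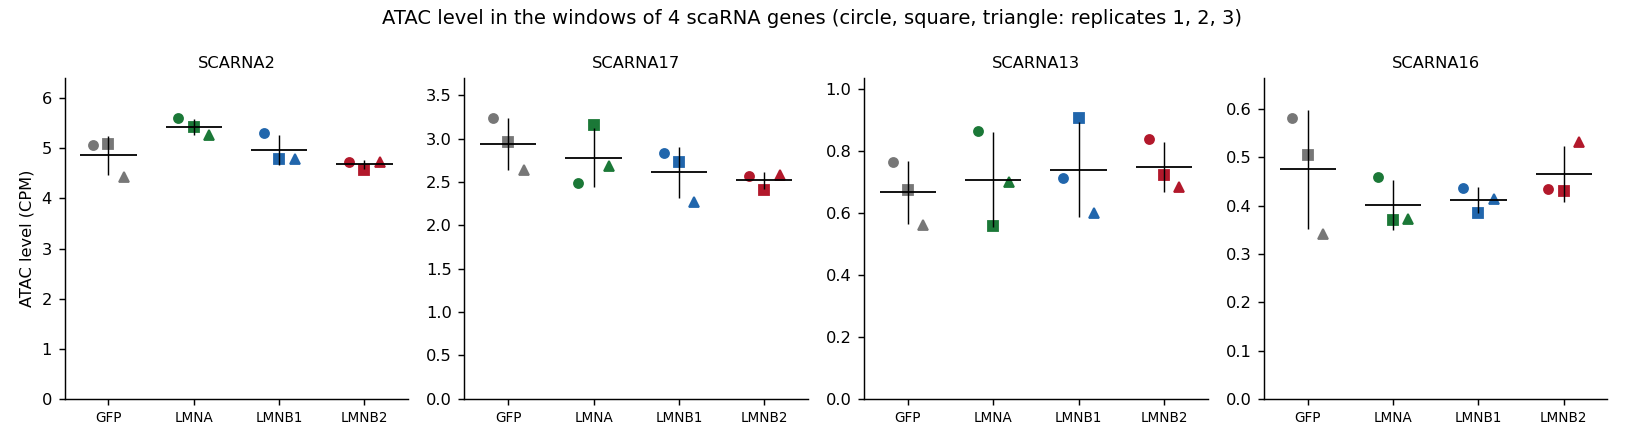
ATAC level in CPM (y axes from 0) in the windows of SCARNA2, SCARNA17, SCARNA13 and SCARNA16 in each library by group, with the group mean and SD (n = 3). The groups overlap for SCARNA13 and SCARNA16, the LMNA libraries are above GFP for SCARNA2, and the LMNB2 libraries are below GFP for SCARNA17.

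The 500 bp flanks gave the same outcome. Of the 20 flanks, 19 were tested among 229879, and the edgeR test called 0 for LMNA (background 0.000435%), 0 for LMNB1 (0.0483%) and 0 for LMNB2 (0.0626%) against GFP. At an unadjusted p under 0.05 the counts were 2 (background 5.28%), 0 (5.66%) and 0 (5.75%). The first of the 2 was the downstream flank of SCARNA5, with 12, 11 and 12 raw counts with GFP, 1, 0 and 2 with LMNA, 3, 14 and 7 with LMNB1 and 11, 12 and 12 with LMNB2. Its LMNA libraries lay below all others, and the log2 fold change for LMNA against GFP was −2.53 ± 0.61 (95% interval −3.73 to −1.33, unadjusted p = 6.35e-05, edgeR adjusted p = 0.921). At such low counts the prior count of 2 used in the fit draws this fold change towards 0, and its SE and interval follow the drawn-in value. The group means were 0.0127 CPM with LMNA and 0.207 with GFP, a wider gap than that fold change gives. The second was the downstream flank of SCARNA16, with a log2 fold change of 0.84 ± 0.39 (edgeR adjusted p = 0.937) and overlapping libraries. The upstream flank of SCARNA16, which holds the SNHG20 promoter, was 15.2 CPM with GFP, 16.5 with LMNA, 16.2 with LMNB1 and 16.4 with LMNB2 on the scaling of the flanks, with log2 fold changes of 0.11, 0.09 and 0.10 against GFP and an SE of 0.10 for each.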

How the data were processed

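The authors deposited a table of raw counts per assay, whole numbers whose totals differ between libraries: small RNA counts per annotated feature, and ATAC counts per feature window and flank. The build is GRCh38, per the submitters' processing notes. Aligner, counter, use of strand, and treatment of multi-mapped and duplicate reads are not given in the sources used here. Overlapping features share reads, and totals include such repeats. Groups came from the sample titles, and columns were matched by library name.

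In each assay all 12 libraries were fitted with a mean per group in edgeR 4.0.16 (R 4.3.3). TMM scaling and the filterByExpr count filter were applied, dispersions were the robust quasi-likelihood ones, and the fit used a prior count of 2 and Benjamini-Hochberg adjustment over all tested features, called at 0.05. The biological coefficient of variation was 0.227 for small RNA. CPM used TMM-scaled sizes. Window to flank ratios used raw counts plus 0.5, divided by length. Replicates differed beyond counting noise, and the labels' batch number is constant within an assay. Alternatives were DESeq2 1.42.0 (test or size factors), total counts, no filter, no lncRNA features, the compared libraries only, a replicate block, each library left out, 0.01 as threshold and longer flanks. The scripts were tested on simulated data. The rule named all 10 genes and fixed companion lists. The genes and lists were chosen with earlier results of these data known.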

Additional observations from a re-analysis of the deposited data

Results flagged for a closer look

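The effects of LMNB2 and of LMNB1 on small RNA level differed for 2 genes by the test of the difference itself, which is the comparison of these lamins in edgeR's quasi-likelihood test: SCARNA12, with a log2 difference of 0.84 (adjusted p = 0.0248), and SCARNA10, with 0.69 (adjusted p = 0.025). The effects of LMNB2 and of LMNA differed for SCARNA7, with a log2 difference of 0.65 (edgeR adjusted p = 0.0477). In each case 3 of 3 LMNB2 libraries lay above the 3 libraries of the other lamin. The adjusted p over the alternatives ran from 1.58e-06 to 0.296 for SCARNA12, from 0.000204 to 0.307 for SCARNA10 and from 0.00823 to 0.262 for SCARNA7. For SCARNA12 and SCARNA10 the call against LMNB1 was lost without LMNB1 replicate 1, 2 or 3 or LMNB2 replicate 2 or 3, and for SCARNA12 also without LMNB2 replicate 1.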

How the results depend on the processing

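The number of the 10 scaRNAs called in small RNA was 2 for LMNB2 against GFP, 1 against LMNA and 2 against LMNB1. With total counts in place of TMM it was 0, 0 and 0, and with an adjusted p under 0.01 it was 0, 0 and 0. The log2 fold changes themselves were larger with total counts: against GFP 1.12 for SCARNA12 and 0.81 for SCARNA10, against LMNB1 0.91 and 0.76, and against LMNA 0.87 for SCARNA7, while the median over all features against GFP moved to 0.19. Without a count filter it was 1, 0 and 1, where more features were tested. With DESeq2's size factors in edgeR the count against LMNA was 0, and with the DESeq2 test it was 2. Without lncRNA features it was 1 against GFP and 2 against LMNA. With only the compared libraries it was 0, 5 and 6; that fit leaves out the other groups, and the GFP libraries had the widest spread. With the replicate block it was 1 against GFP and 0 against LMNA. Deviations of same-numbered libraries from their group means correlated at −0.041 to 0.234 in small RNA, with 2 of 18 over 0.1. In ATAC the correlations were −0.076 to 0.195, with 2 of 18 over 0.1. Differently numbered libraries were not correlated for reference, so these values do not decide whether the numbers pair the libraries. The main fit did not pair them, and the block changed no call in ATAC. On leaving out 1 library at a time the count ran from 0 to 4 against GFP, from 0 to 2 against LMNA and from 0 to 5 against LMNB1, and for LMNA against GFP from 0 to 1, in each case highest without GFP replicate 3. The causes of these changes were not tested. No log2 fold change with an unadjusted p under 0.05 changed sign, and the ATAC counts stayed at 0 for windows and flanks under the alternatives run. Against 5000 and 50000 bp flanks the mean log2 ratio was 5.96 and 4.87 at SCARNA2, 4.20 and 5.18 at SCARNA17, 0.15 and 1.93 at SCARNA16 and 0.14 and 2.55 at SCARNA13. It was 1.97 and 0.98 at SCARNA6, 1.09 and −0.67 at SCARNA5, 0.01 and −2.84 at SCARNA10 and −2.71 and −1.55 at SCARNA12. At SCARNA7 it was −0.65 and −2.21, and at SCARNA9 −0.55 and −1.85. Depth limits the ATAC comparison at SCARNA5, SCARNA7, SCARNA9 and SCARNA10, with at most 21 counts per library, and the small RNA comparison at the inner SCARNA17 interval.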
